A study of Mus musculus with 6 samples.

Results

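What changed when DON was given to alveolar macrophages that kept their cytokine was read from 4 RNA sequencing libraries, out of 6 in the series: 2 of cells with GM-CSF and 2 of cells with GM-CSF with DON. All are from wild-type mouse cells collected at day 2, and both groups had GM-CSF, so they differ in DON alone as far as the labels say. The other 2 libraries, from cells with no GM-CSF, entered the statistical model and are given as levels only. DON is named in the labels by its short name, which stands for the glutamine antagonist diazo-oxo-norleucine, and its dose is not given. The labels give the cell line as AM, with no word on whether that means primary or established cells. Nor do they say that replicates came from separate cultures or animals; p-values therefore reflect only how far these libraries lie apart, which may be technical.

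Alveolar macrophages live in the air spaces of the lung, where they clear surfactant and inhaled particles, and they depend on the cytokine GM-CSF for their development and upkeep. Glutamine is both a fuel and the nitrogen donor of a family of enzymes, the amidotransferases, which build purines, pyrimidines, amino sugars and asparagine. DON resembles glutamine and binds irreversibly to enzymes that use it. Cells short of amino acids activate the integrated stress response, in which phosphorylation of the translation factor eIF2 raises the transcription factor ATF4. ATF4 in turn induces genes of amino acid synthesis and transport, and under lasting stress CHOP (gene Ddit3) and its targets.

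The 6 libraries held between 28321986 and 35196387 counts, and 12340 of 16840 gene symbols had enough counts to be tested. All 10 macrophage markers checked were present, and their summed level was 23660 and 23670 CPM with GM-CSF and 27390 and 26240 CPM with DON. CPM is a gene's share of a library, taken of the scaled library size for single genes and of total counts for marker sums. Markers of T cells (7 of 12 matched, summed to 1.22 to 1.76 CPM), red cells (3 of 9, 0.189 to 0.364 CPM), granulocytes (6 of 16, 5.10 to 9.36 CPM) and dendritic cells (7 of 9, 25.7 to 29.1 CPM) were low in the 4 libraries compared. Defining markers such as Cd3e of T cells and S100a9 and Ly6g of granulocytes were among the unmatched and were not analysed here. Of the 7 T cell markers 2 were at 0 in all 4 libraries, and of the 7 B cell markers 3. The largest part of the B cell and stroma sums came from 1 gene each, Cd22 (115 ± 1.55 CPM with GM-CSF, 187 ± 0.193 with DON; SD, n = 2 here and throughout) and Vwf (98 ± 7.28 and 262 ± 14.2). The epithelium sum, 177 and 185 CPM with GM-CSF and 114 and 118 CPM with DON, came mainly from Cdh1 (98 ± 3.62 and 25.6 ± 0.705) and Abca3 (68.8 ± 0.674 and 80.1 ± 2.17). These 4 genes moved with DON, and their part in other results was not tested.

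Of the 12340 genes, 7111 (57.6%) passed edgeR's quasi-likelihood test at an adjusted p under 0.05, 3555 higher with DON (28.8%) and 3556 lower (28.8%). The libraries of the 2 groups did not overlap for 9804 genes (79.4%). Most changes were small: 4363 of the called genes (61.4%) changed by less than 1.5-fold, and the median log2 fold change of all genes was 0.01. Changes of at least 2-fold were called for 1156 genes (9.37%), 632 higher (5.12%) and 524 lower (4.25%), and 208 of these were at least 4-fold, 112 higher and 96 lower. These shares are the background for every count below: a group of genes with close to 28.8% of its members called each way is like the rest of the table, and counts are read against that. CPM measures a gene's share of a library, and in bulk RNA fewer cells expressing a gene and less of its RNA per cell cannot be told apart.

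**Figure D1:**
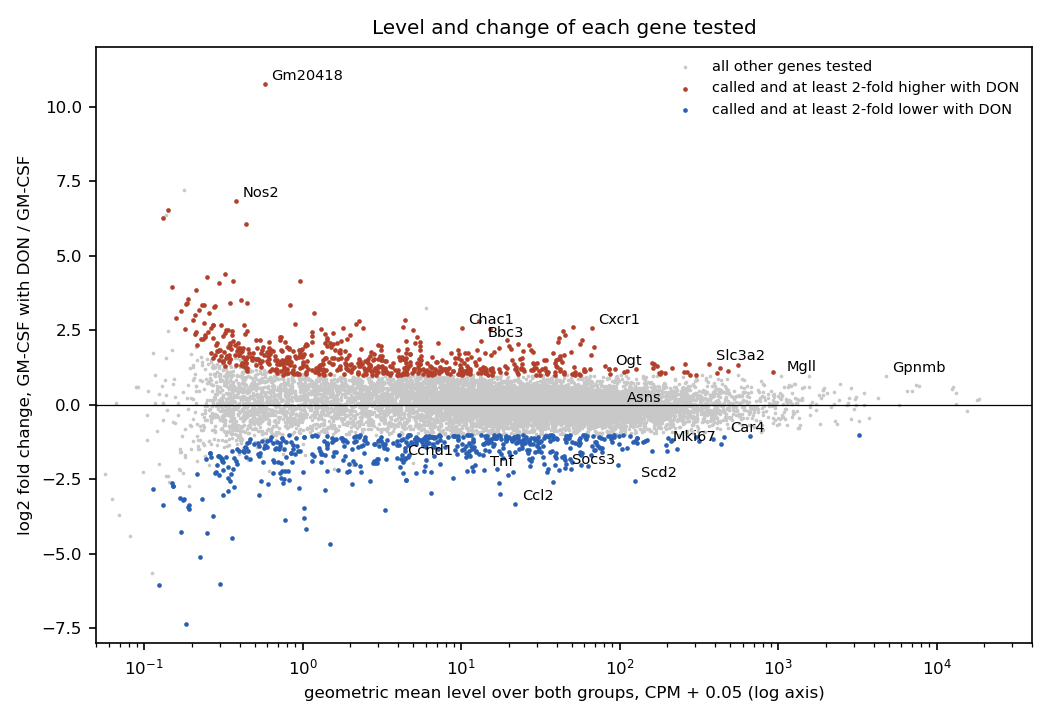
Each point is 1 of the 12340 genes tested; the horizontal log axis is its geometric mean level over both groups (CPM + 0.05) and the vertical axis its fitted log2 fold change with DON. The 632 genes called and at least 2-fold higher are red, the 524 lower are blue, and the largest fold changes lie at the left, among genes of low level.

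Beyond the stress, chemokine and division genes described below, genes of other kinds also changed strongly; those named here averaged 10 CPM or more. Spag11b, which encodes a defensin-like peptide, had 27.2 and 27.8 CPM with GM-CSF and 112 and 115 CPM with DON, a log2 fold change of 2.05 ± 0.05 (± SE). Arhgef3, a guanine nucleotide exchange factor, went from 27.7 and 26.6 to 121 and 125 CPM, and Rasa4, an inhibitor of Ras, from 36.1 and 34.6 to 134 and 135 CPM. All 3 rose about 4-fold with libraries that lay far apart. The clock gene Per2 (1.77 ± 0.11), the tetraspanin Cd37 (1.76 ± 0.10), the secreted glycoprotein gene Fstl1 (1.77 ± 0.12) and the lysosomal sulfatase Arsg (1.85 ± 0.08) rose as well. In the other direction the potassium channel Kcnn4 fell from 71.3 and 86.9 to 18.4 and 20.5 CPM, and the matrix glycoprotein Emilin2 from 123 and 136 to 29.1 and 33.1 CPM. Piwil2, best known from small RNA pathways of the germ line, fell by 2.22 on the log2 scale. The alpha tubulin gene Tuba1c fell from 195 ± 4.56 to 48.4 ± 1.47 CPM; tubulin genes are so alike that reads may be shared among them.

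Most regulators and effectors of the integrated stress response were higher with DON. Ddit3, on chromosome 10 from 127290793 to 127296291 (GRCm38), had 21.2 and 20 CPM with GM-CSF and 125 and 124 CPM with DON; with no GM-CSF it had 18.5 and 22.6 CPM. Cells with and without the cytokine were thus at one level, and only the DON libraries were high. Chac1, which degrades glutathione, went from 4.05 and 4.13 to 24.9 and 24.1 CPM. Bbc3, which encodes the pro-apoptotic protein PUMA, went from 6.16 and 6.55 to 27.3 and 28.4 CPM (2.13 ± 0.09, adjusted p = 7.7e-08) and was at 6.64 and 6.03 CPM with no GM-CSF. Trib3, a pseudokinase that restrains ATF4 and CHOP, rose by 2.34 ± 0.08. Ppp1r15a, whose product GADD34 removes the phosphate from eIF2, rose from 11.6 and 14.6 to 46 and 45.3 CPM. Sesn2, an inhibitor of the growth kinase mTORC1, rose from 34.3 and 39 to 119 and 117 CPM.

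By role, all 8 transcription factors of the list rose, with a median log2 fold change of 0.89. Atf4 itself, which is controlled largely at translation, went from 311 ± 11.8 to 563 ± 36.2 CPM (0.85 ± 0.06), Atf5 rose by 0.97 ± 0.06 and Nupr1 by 1.26 ± 0.10. Among the 5 genes of eIF2 kinases and of eIF2 alpha, 1 rose and 2 fell. Of 7 genes of the CHOP arm 4 rose and 3 were not called, with a median of 0.33, and of 2 feedback genes 1 rose. The list as a whole had 17 of 25 members higher (68%) and 2 lower, with 8 at least 2-fold higher. The growth brakes, which hold back protein synthesis and mTORC1, were higher in all 3 cases: Sesn2, Eif4ebp1 (0.36 ± 0.06) and Ddit4, the last near the limit of detection (0.42 ± 0.261 and 1.13 ± 0.22 CPM) and not called under some alternatives.

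Genes that ATF4 induces for amino acid supply did not follow as a group. Asns, asparagine synthetase and itself an amidotransferase, had 98.6 and 107 CPM with GM-CSF and 101 and 97.5 CPM with DON. It lies on chromosome 6 from 7675165 to 7693209. Its libraries overlapped, and the log2 fold change of -0.05 had a 95% interval of -0.20 to 0.10 (adjusted p = 0.544), so a rise of the size seen for Atf4 lay outside it. The cystine transporter Slc7a11 (-0.07, interval -0.25 to 0.11) and the leucine transporter Slc7a5 (-0.09, -0.25 to 0.07) were not called either. All 3 enzymes of serine synthesis fell: Psat1, the glutamate-dependent transaminase, went from 204 and 215 to 116 and 112 CPM (-0.88 ± 0.05), Psph from 15.6 and 14.6 to 9.13 and 9.49 and Phgdh from 249 and 242 to 212 and 202. Others rose. Slc3a2, the heavy chain shared by Slc7a5 and Slc7a11, went from 232 and 228 to 607 and 569.7 CPM (1.35 ± 0.04), the mitochondrial folate enzyme Mthfd2 from 104 and 109 to 199 and 199 (0.90 ± 0.08), and the mitochondrial PEP carboxykinase Pck2 from 47.5 and 50.3 to 68.4 and 66.7 (0.47 ± 0.06).

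**Figure D2:**
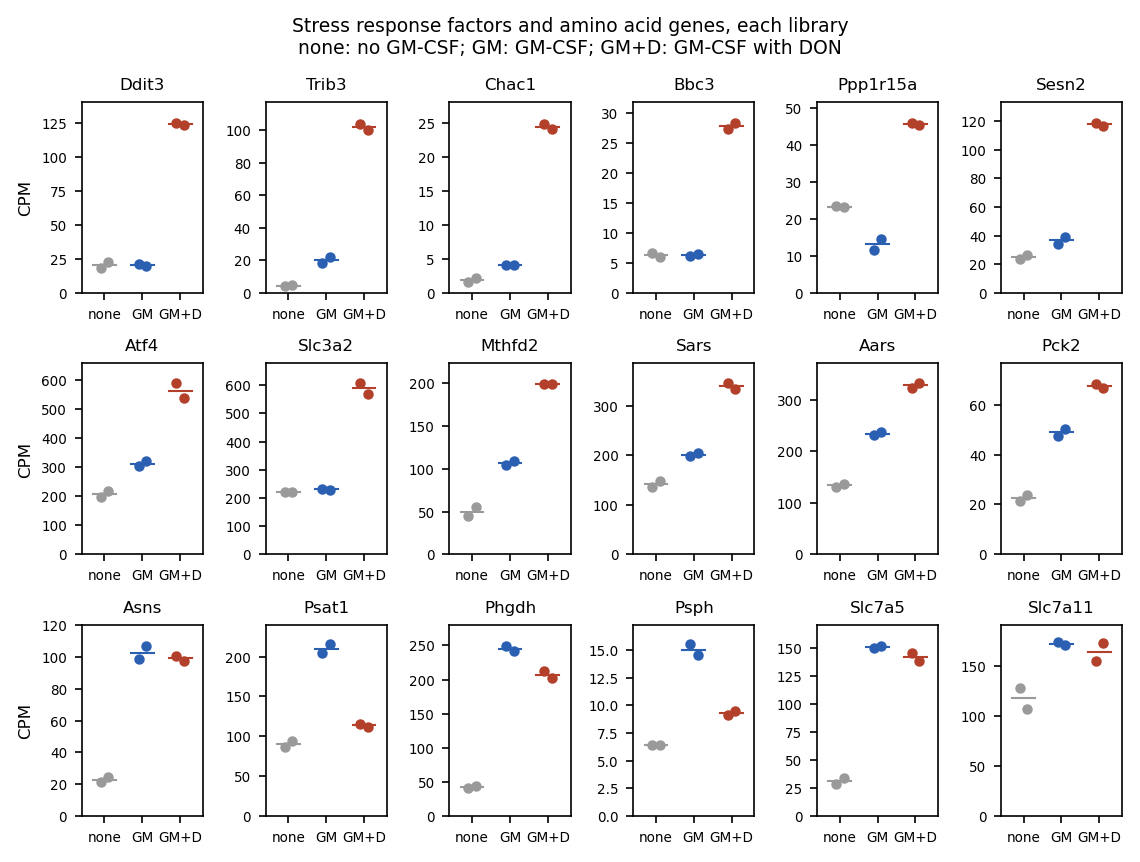
CPM (linear axis from 0) of 18 genes in each library, 2 points and their mean per group: no GM-CSF (grey), GM-CSF (blue) and GM-CSF with DON (red). The stress effectors in the top row are high in the DON libraries only, the genes of the middle row step up, and in the bottom row the DON libraries overlap or lie below those with GM-CSF alone.

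In the serine and one-carbon list 12 of 19 members fell (63.2%) and 4 rose. The mitochondrial synthetase Mthfd1l fell by 1.33 (log2). Of 22 amino acid transporters, 5 rose and 9 fell; the glutamine transporter Slc38a2 rose (0.42 ± 0.05) while Slc1a5 (-0.51 ± 0.05), which imports glutamine, and Slc7a8 (-1.29 ± 0.06) fell. The cytosolic tRNA synthetases, which load amino acids onto tRNAs, split into 7 risers and 10 fallers of 20. The largest rises were those for serine (Sars, 0.76 ± 0.05), tryptophan (Wars, 0.59 ± 0.05) and alanine (Aars, 0.49 ± 0.04), and the largest falls those for histidine (Hars, -0.62 ± 0.05) and phenylalanine (Farsa, -0.57 ± 0.07). Of 27 genes of the unfolded protein response of the endoplasmic reticulum, 8 rose and 12 fell, none 2-fold, with the degradation factor Herpud1 up (0.98 ± 0.06) and the chaperone cofactor Dnajb11 down (-0.54 ± 0.06). Within this list 8 of 11 chaperone genes fell and 2 rose, and 3 of 5 genes of disulphide formation fell and 0 rose. All 3 sensors rose, and of 8 degradation genes 3 rose and 1 fell.

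The promoters of 4 genes of the response are shown because they carry the same kind of element and the genes moved differently. They are from RefSeq for GRCm38.p6 and read 5′ to 3′ along the gene's strand, with matches to TGATGNAA (searched on both strands), the core of the element bound by C/EBP and ATF factors, in capitals. Chac1 (chr2:119351042-119351228, plus strand) and Pck2 (chr14:55540136-55540265, plus) rose, and Slc7a11 (chr3:50443615-50443693, minus) and Asns (chr6:7693210-7693239, minus) were not called.
Chac1: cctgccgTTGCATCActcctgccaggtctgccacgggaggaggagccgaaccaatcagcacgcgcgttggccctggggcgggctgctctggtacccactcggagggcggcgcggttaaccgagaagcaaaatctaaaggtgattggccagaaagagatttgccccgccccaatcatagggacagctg
Pck2: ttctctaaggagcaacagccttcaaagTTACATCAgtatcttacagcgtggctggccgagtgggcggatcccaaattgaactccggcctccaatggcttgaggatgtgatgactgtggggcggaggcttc
Slc7a11: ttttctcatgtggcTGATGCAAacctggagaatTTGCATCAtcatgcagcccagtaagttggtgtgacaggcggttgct
Asns: agccacaTGATGAAActtcccgcacgcgtt
In the 250 bases before the start, the element was found in 4 of 29 promoters of the regulator list (13.8%) and 3 of 12 of the tRNA synthetases (25%), against 2.11% of the promoters of all genes tested and 3.45% of all promoters in the table. It was in 12.5% of the promoters of the cholesterol list described below, in 2.49% of those of genes at least 2-fold higher and in 2.88% of those at least 2-fold lower. Promoters were matched for 8536 of the 12340 genes tested. A match is only a run of letters, and it was present beside a rise and beside no call.

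Genes of the enzymes that take nitrogen from glutamine were lower or not called. Of 13 amidotransferase genes, 6 fell (46.2%) and none rose. All 3 of purine synthesis fell: Pfas from 20.5 and 20.1 to 10.5 and 10.3 CPM (-0.97 ± 0.08, adjusted p = 6.42e-06), Ppat from 23.7 and 23.4 to 18 and 17.6 (-0.41 ± 0.07), and Gmps from 65.1 and 64.4 to 46.3 and 53.2 (-0.38 ± 0.07). In each the DON libraries lay below both GM-CSF libraries. Of the pyrimidine enzymes, Cad, which starts the pathway, fell from 59.1 and 58.3 to 35.2 and 36.6 CPM, and the CTP synthase Ctps from 16.6 and 16.5 to 10.6 and 10.5, while its paralog Ctps2 was not called (0.03 ± 0.06). The hexosamine enzyme Gfpt1 had 65.6 and 78.8 CPM with GM-CSF and 60.6 and 63.6 with DON. Its change (-0.22, adjusted p = 0.0453) was not called without GM-CSF replicate 2 (-0.08, adjusted p = 0.394), DON replicate 1 (-0.18, 0.2) or DON replicate 2 (-0.25, 0.0965), nor with limma-voom (0.0532) or the replicate block (0.0562). The 3 genes of the mitochondrial glutaminyl-tRNA amidotransferase were not called.

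Around these enzymes, 12 of 16 purine genes fell (75%) and 2 rose, Impdh2 (0.47 ± 0.05) and Adss (0.31 ± 0.05), which stand at the branches to GMP and AMP. Of 19 pyrimidine and deoxynucleotide genes 12 fell (63.2%) and none rose. The ribonucleotide reductase subunit Rrm1 went from 204 and 198 to 77.5 and 87.8 CPM, the uridine kinase Uck2 fell by 1.24 and the deoxycytidine kinase Dck by 1.09 on the log2 scale. Glutamine synthetase (Glul) was at 113 and 115 CPM with GM-CSF and 100.4 and 108 CPM with DON, a change (-0.13 ± 0.05) that was not called without either GM-CSF library or without DON replicate 1 (adjusted p = 0.0878, 0.13 and 0.226). Of 6 proline genes 4 fell and 1 rose, and the fallers included Aldh18a1 (-0.44 ± 0.05) and the low-level Pycr1 (from 1.3 ± 0.39 to 0.265 ± 0.0705 CPM). Glutamate dehydrogenase (Glud1) and the transaminases Got1, Got2 and Gpt2 were not called.

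The enzymes that add and remove O-GlcNAc, the sugar mark made from the hexosamine product, moved in opposite directions. Ogt, the transferase, on chromosome X from 101640011 to 101684351, had 58.9 and 54.1 CPM with GM-CSF and 123 and 137 CPM with DON (1.2 ± 0.08, adjusted p = 9.61e-07). Mgea5, the older symbol of the hydrolase OGA, had 69.8 and 73 CPM with GM-CSF and 19.3 and 23.7 CPM with DON (-1.73 ± 0.08, adjusted p = 1.97e-07). With no GM-CSF, Mgea5 was at 69.2 and 66.1 CPM, so it was low in the DON libraries alone. The salvage kinase Nagk, which feeds amino sugars back without glutamine, rose from 70.3 and 67.1 to 132 and 129.6 CPM, and Pgm3, a later enzyme of the pathway, fell (-0.72 ± 0.08). Txnip, which responds to sugar phosphates and restrains glucose uptake, fell from 134 and 139 to 59.5 and 56.2 CPM (-1.24 ± 0.05).

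Many growth and protein production genes were lower. Of 40 genes of MYC and ribosome assembly 27 fell (67.5%) and 8 rose, none 2-fold. Myc, the transcription factor at its head, went from 74.5 and 69.5 to 49.3 and 47.4 CPM (-0.58 ± 0.06), while its antagonist Mxi1 rose (0.86 ± 0.05). Among the nucleolar genes 18 of 22 fell, such as Nop58 (-0.97 ± 0.06) and Nolc1 (-0.95 ± 0.05), and the polyamine enzymes Srm (-0.95 ± 0.06) and Odc1 (-0.80 ± 0.07) fell with them. Ribosomal protein genes, which share reads with many pseudogenes, went both ways (22 higher and 30 lower of 81). Translation factors had 10 risers, among them Eef2 (0.70 ± 0.04) and Eif4b (0.88 ± 0.04), and 19 fallers of 42, among them Eif5a (-0.83 ± 0.04) and Eif4g1 (-0.76 ± 0.05). The proteasome, which breaks down proteins, was lower in 32 of 39 genes (82.1%), with Psmd3 going from 178 and 169 to 93.1 and 90.3 CPM.

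**Figure D3:**
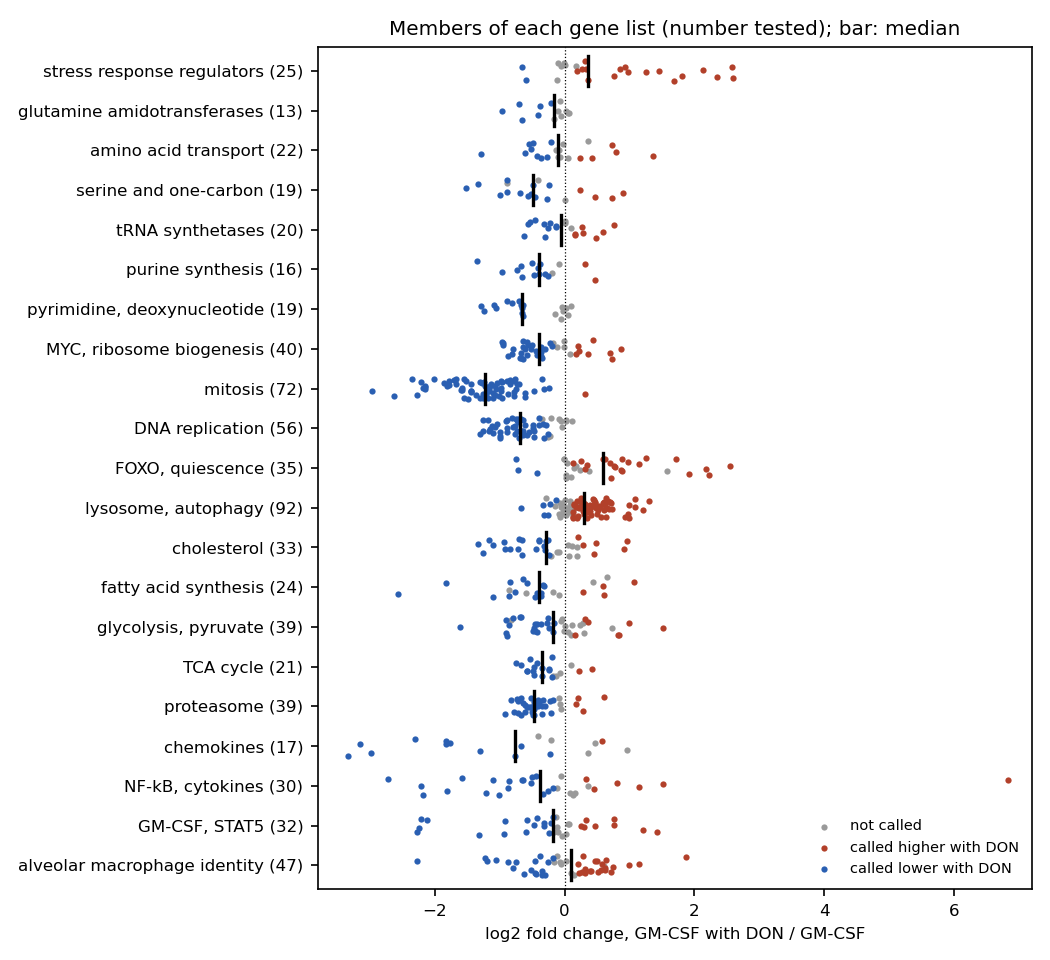
Points are the members of 21 gene lists, placed by log2 fold change with DON (horizontal axis) and coloured by the call; the bar is the list's median and the number of members tested stands beside its name. Mitosis lies farthest to the left (median -1.22), the FOXO and quiescence list farthest to the right (0.59), and several lists spread to both sides.

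Many genes linked to FOXO factors, starvation and quiescence were higher. FOXO factors are held out of the nucleus by growth factor signalling and drive arrest and autophagy genes when it falls. Of 35 members 21 rose (60%), 7 of them at least 2-fold, and 3 fell. Fbxo32, the ubiquitin ligase atrogin of wasting muscle, had 15.8 and 22.5 CPM with GM-CSF and 86.4 and 92.3 CPM with DON, and 22.2 and 23.4 CPM with no GM-CSF. Pink1, a kinase that marks damaged mitochondria, rose from 19.1 and 22.6 to 67.7 and 69.5 CPM, and the arrest gene Ypel3 from 8.51 and 9.3 to 35.2 and 31.9. For both, the libraries with no GM-CSF lay nearer to DON than to GM-CSF alone, at 55.6 and 51 CPM for Pink1 and 30.1 and 30.1 CPM for Ypel3. Ccng2, an unusual cyclin of resting cells, rose by 1.25 ± 0.08 on the log2 scale, while the antiproliferative Btg2 fell (-0.74 ± 0.09). Of the FOXO genes themselves, Foxo4 rose (0.76 ± 0.11) and Foxo3 was not called (0.14 ± 0.06; adjusted p = 0.0491 with only the 4 libraries).

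A full FOXO site, TTGTTTAC on either strand, was found in 11 of 523 promoters of genes at least 2-fold higher (2.1%), in 0.48% of those at least 2-fold lower in 0.651% of those of all genes tested and in 1.07% of all promoters in the table. Tmem140, a membrane protein gene that rose from 17.5 and 20 to 101 and 108 CPM, and Bbc3 are shown with the site in capitals (chr6:34863016-34863145 and chr7:16310081-16310260, GRCm38.p6, both plus strand); RefSeq gives Bbc3 3 promoters, of which 1 is shown.
Tmem140: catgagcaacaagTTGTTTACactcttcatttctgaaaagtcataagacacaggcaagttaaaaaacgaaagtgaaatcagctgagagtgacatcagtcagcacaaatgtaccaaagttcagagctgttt
Bbc3: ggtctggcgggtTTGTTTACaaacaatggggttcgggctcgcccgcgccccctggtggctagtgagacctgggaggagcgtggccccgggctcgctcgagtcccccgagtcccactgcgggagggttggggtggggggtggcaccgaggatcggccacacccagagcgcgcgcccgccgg

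Damage and survival genes moved unevenly. Gadd45a, a growth arrest gene, had 4.46 and 5.27 CPM with GM-CSF, 31.8 and 35.7 with DON and 15.5 and 16.4 with no GM-CSF. Gadd45b (1.0 ± 0.10) and Gadd45g (0.79 ± 0.05) rose with it. Of 31 genes of the GADD45 family and p53 network 15 rose (48.4%) and 7 fell. Among the 24 p53 target genes of this list 11 rose (45.8%) and 7 fell, with 3 each way at least 2-fold. The largest rise of these targets was that of Bbc3 (2.13). Of 2 well-known p53 targets, Mdm2 was not called (0.03 ± 0.05), and the change of the cell cycle inhibitor Cdkn1a (0.19 ± 0.06) was not called without GM-CSF replicate 1 (adjusted p = 0.244), DON replicate 1 (0.0579) or DON replicate 2 (0.126). In the BCL2 family, which sets the threshold of apoptosis, 5 of 16 genes rose (31.2%) and 5 fell, shares near the background. The pro-apoptotic Bmf (0.91 ± 0.11) and Bax (0.47 ± 0.06) rose beside Bbc3, Bak1 fell (-0.50 ± 0.05), Bcl2l11, which encodes BIM, was not called (interval -0.18 to 0.18), and of 7 survival genes 3 fell, such as Bcl2 (-0.91 ± 0.14) and Mcl1 (-0.25 ± 0.04), 1 rose and 3 were not called.

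Cell cycle genes were lower from G1 to mitotic exit. All 5 G1 cyclin genes fell: cyclin D1 (Ccnd1) from 7.42 and 8.06 to 1.96 and 2.43 CPM, cyclin D2 (Ccnd2) from 200.3 and 178 to 90.5 and 83.5, and Ccnd3, Ccne1 and Ccne2 with log2 fold changes of -1.06, -1.10 and -1.14. With no GM-CSF, Ccnd1 was at 27.4 and 28.2 CPM, above both other groups, while the other 4 lay between them. Of 7 inhibitors of the G1 kinases 2 rose, Cdkn1b (0.34 ± 0.07) and Cdkn1a, and 3 fell, among them Cdkn2c (-0.94 ± 0.08). The pocket protein genes Rbl2 (0.62 ± 0.06) and Rb1 (0.45 ± 0.08), which hold E2F factors in check, rose, and the 7 other members of their group fell, most of all E2f2 (-1.18 ± 0.06).

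The falls differed in size by role. In the DNA replication list 46 of 56 genes fell and none rose, with medians of -0.81 for licensing, -0.59 for the fork and -0.65 for repair. Within licensing, the helicase subunit Mcm5 fell from 112 and 106 to 42.2 and 48.5 CPM. In the mitosis list 71 of 72 fell, 49 of them at least 2-fold, with medians from -0.98 for chromosome condensation to -1.63 for the mitotic cyclins. The exception was the securin gene Pttg1, named after its value was seen, which rose by 0.32 ± 0.10. Mitotic exit also held Cdkn3 (-2.97 ± 0.12) and Cdc20 (-2.63 ± 0.10), a phosphatase and the activator of the anaphase-promoting complex. The mitosis list made up 0.487 and 0.456% of counts with GM-CSF, 0.181 and 0.214% with DON and 0.196 and 0.200% with no GM-CSF, so its share with DON was close to that without the cytokine.

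**Figure D4:**
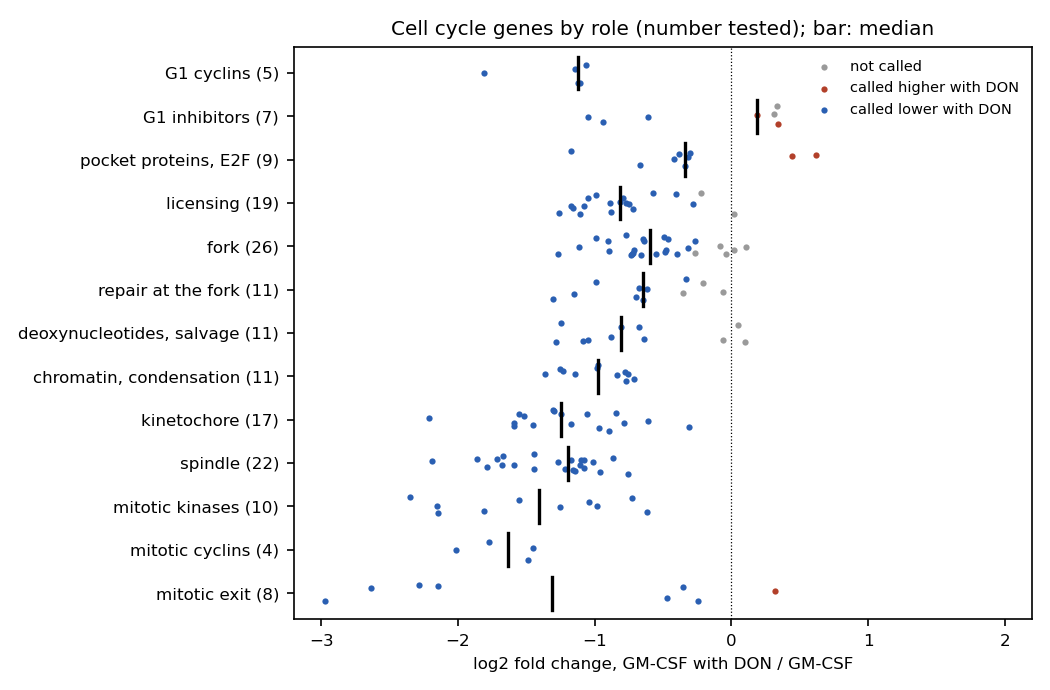
Points are cell cycle genes grouped by role, placed by log2 fold change with DON; the bar is the median of the role and the number tested stands beside it. Medians lie between -0.59 and -0.81 for replication roles and between -0.98 and -1.63 for mitotic roles, and only pocket protein, inhibitor and exit genes reach the right side as called genes.

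Promoters of division genes often hold the cell cycle homology element (CHR), TTTGAA, through which the DREAM and MuvB complexes act, and a CCAAT box. The CHR letters were found on either strand in 22 of 62 mitosis promoters (35.5%), against 10.7% of promoters of all genes tested and 16% of all promoters, and CCAAT in 71% against 35.7 and 33.8%. The box was as frequent elsewhere, in 82.6% of the promoters of the unfolded protein response list. CCAAT and TTTGAA were counted separately and can share a base. For the genes at least 2-fold lower, the CHR share was 18.9%, and for those at least 2-fold higher 10.1%. Cdc20 (chr4:118437353-118437433, minus strand), Cdk1 (chr10:69352939-69353012, minus), Cdkn3 (chr14:46760421-46760540, plus) and Mki67 (chr7:135716380-135716499, minus; GRCm38.p6) are shown as large fallers, with TTTGAA or its reverse complement in capitals.
Cdc20: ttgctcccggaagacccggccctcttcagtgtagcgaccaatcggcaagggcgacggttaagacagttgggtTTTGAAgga
Cdk1: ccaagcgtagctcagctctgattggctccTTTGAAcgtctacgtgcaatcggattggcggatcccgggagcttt
Cdkn3: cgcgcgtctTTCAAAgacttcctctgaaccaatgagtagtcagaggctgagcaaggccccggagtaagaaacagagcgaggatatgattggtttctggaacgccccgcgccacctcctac
Mki67: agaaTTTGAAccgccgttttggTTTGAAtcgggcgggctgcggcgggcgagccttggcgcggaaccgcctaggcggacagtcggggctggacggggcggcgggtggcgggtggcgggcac
Cdk1, the kinase of mitotic entry, fell from 91.9 and 89.1 to 23.6 and 28 CPM, and the proliferation marker Mki67 from 329 and 303 to 101 and 144 CPM.

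Lysosome and autophagy genes were higher over a broad front, mostly by less than 2-fold. Of 92 genes 63 rose (68.5%), 6 fell, and the median was 0.29. Among hydrolases and membrane proteins 29 of 36 rose. Acid alpha-glucosidase (Gaa), which breaks down glycogen, had 109 and 110.4 CPM with GM-CSF and 272 and 268 with DON (1.3 ± 0.05), and the calcium channel Mcoln1 rose from 83 and 84 to 195 and 192 CPM (1.21 ± 0.04). Cathepsins D and B, among the most abundant genes of the libraries, rose by 0.53 ± 0.03 and 0.66 ± 0.04. Of the proton pump subunits 11 of 15 rose, by at most 0.55. Autophagy genes rose in 15 of 23 cases, with the cargo receptor Sqstm1 going from 380.0 and 407 to 792 and 779 CPM, Tecpr1 from 129.9 and 134 to 280.5 and 279.6 and the LC3 homolog Gabarapl1 up by 0.98 ± 0.04. Tfeb, the factor that drives this network, rose by 0.45 ± 0.04, its relatives Tfe3 (-0.01 ± 0.05) and Mitf (0.13 ± 0.07) were not called, and the nutrient-sensing GTPase Rragd, a known target of theirs, rose by 1.09 ± 0.09.

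TFEB and its relatives bind an E-box, CACGTG, a palindrome that reads alike on both strands and that MYC also binds. These letters were found in 22 of 83 promoters of the list (26.5%), against 8.45% for all genes tested and 6.02% for all promoters. The share was like that of the translation factors (26.8%) and tRNA synthetases (25%), and it was 6.69% for genes at least 2-fold higher and 6.95% for those at least 2-fold lower. Glb1 (0.40 ± 0.05), Gaa and the proton pump gene Atp6v0b (0.34 ± 0.05) rose, and stretches of their promoters hold it (chr9:114400988-114401075, plus strand; chr11:119267803-119267886, plus; chr4:117887330-117887409, minus; GRCm38.p6; E-box in capitals).
Glb1: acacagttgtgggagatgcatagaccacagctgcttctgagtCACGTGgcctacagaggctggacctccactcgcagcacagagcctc
Gaa: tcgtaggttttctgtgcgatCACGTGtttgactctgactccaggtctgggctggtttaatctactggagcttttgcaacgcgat
Atp6v0b: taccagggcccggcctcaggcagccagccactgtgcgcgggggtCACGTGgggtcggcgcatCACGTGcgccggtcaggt

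Many lipid synthesis genes were lower, and several genes of stored fat were higher. The desaturase Scd2 had 268 and 337 CPM with GM-CSF, 327 and 308 with no GM-CSF and 51.5 and 50.8 with DON, so both other groups lay well above DON. Fatty acid synthase (Fasn) went from 198 and 183 to 85.1 and 91.5 CPM (-1.11 ± 0.14). Of 24 genes of fatty acid synthesis, desaturation, elongation, glycerolipid assembly and their regulation 14 fell (58.3%) and 4 rose. Among them, 2 of 6 synthesis genes fell (33.3%, near the background) and 1 rose. Falls were called for 4 of 5 desaturation genes and 3 of 4 elongation genes. The regulator Srebf1 fell by 0.57 on the log2 scale. Of 8 glycerolipid genes 3 rose, such as Dgat1 (1.07 ± 0.09), and 4 fell, with 1 each way at least 2-fold. In the cholesterol list 14 of 20 synthesis genes fell, among them Idi1, an isomerase of the isoprenoid steps (43.6 and 43.9 to 18.5 and 20.3 CPM, -1.17 ± 0.08), and so did all 3 uptake genes. Squalene synthase (Fdft1) was the 1 synthesis gene that rose, from 12.5 and 12 to 22.3 and 24 CPM. The lipases Pnpla2 (126 and 124 to 268 and 263 CPM, 1.09 ± 0.05) and Mgll (0.98 ± 0.04), which release fatty acids from stored fat, rose. Fatty acid uptake genes were evenly split, 4 of 10 higher, such as Cd36 (0.67 ± 0.05), and 4 lower, such as Acsl3 (-1.37 ± 0.11). Enzymes of beta-oxidation were largely not called (12 of 21), and the entry enzyme Cpt1a fell (-0.57 ± 0.05).

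Many central carbon genes were modestly lower. Of 39 genes of glycolysis and pyruvate use 20 fell (51.3%) and 7 rose. Enolase (Eno1) went from 1067 and 1088 to 591 and 555 CPM, and the lactate exporter Slc16a3 from 63.8 and 74.5 to 21.9 and 23.2 (-1.62 ± 0.08). The myeloid hexokinase Hk3 (0.82 ± 0.07) and the pyruvate dehydrogenase kinase Pdk2 (0.99 ± 0.09) rose. In the TCA cycle 15 of 21 genes fell (71.4%), with citrate synthase (Cs, -0.67 ± 0.04) and Idh3a (-0.75 ± 0.06) as examples, and Ogdh, which takes in the carbon of glutamine, fell by 0.54 on the log2 scale. Nuclear genes of oxidative phosphorylation fell in 42 of 71 cases (59.2%). In the list of mitochondrial ribosome, chaperone and import genes 46 of 95 fell (48.4%), and of its 76 ribosome genes 35 fell (46.1%). Of these 2 lists 1 gene fell 2-fold. The 12 measured genes of the mitochondrial genome were not of one direction: mt-Co1 rose (0.46 ± 0.07), mt-Cytb (-0.79 ± 0.09) and mt-Nd3 (-0.88 ± 0.05) fell, and 8 were not called.

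Most chemokine and cytokine genes tested fell, with a few large exceptions. Of 17 chemokine genes 11 fell (64.7%), 8 of them at least 2-fold, and 1 rose, Cxcl16 (0.57 ± 0.07), a ligand that also serves as a scavenger receptor. The falls lay mainly in the CC family, with 9 of 11 genes lower (81.8%), 6 of them at least 2-fold. In the CXC family 2 of 6 fell (33.3%, near the background), both at least 2-fold, and 3 were not called. Ccl2, which draws monocytes, had 62.9 and 76.2 CPM with GM-CSF, 7.38 and 6.45 with DON and 1.45 and 1.4 with no GM-CSF. Ccl4 (-2.98 ± 0.11) and Ccl3 (-1.3 ± 0.05), which also attract leukocytes, fell too. The abundant Ccl6 fell less (-0.22 ± 0.05). Of 30 genes of NF-kB and cytokines 18 fell (60%) and 6 rose (20%), with 8 and 3 of them at least 2-fold. The 5 NF-kB subunit genes were split, 2 higher and 2 lower. Tnf went from 30.1 and 29 to 7.03 and 6.08 CPM, the interleukin 1 antagonist Il1rn from 131 and 137 to 44.2 and 44.8 and the activin subunit Inhba from 42.6 and 57.3 to 13.7 and 14.6. For Tnf the libraries with no GM-CSF were highest, at 68 and 76.4 CPM. Immediate early genes, which mark recent growth factor or stress signals, and their feedback genes fell in 21 of 33 cases (63.6%). By role, 4 of 6 genes of the Fos and Jun group fell, 12 of 15 other early genes and 5 of 12 feedback genes. The fallers included Fos (-1.49 ± 0.11), Egr1 (-1.48 ± 0.20) and the ERK phosphatase Dusp5 (-1.7 ± 0.08), while Jun rose (0.44 ± 0.04).

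Receptors and effectors went both ways. Nos2, the inducible nitric oxide synthase of activated macrophages, on chromosome 11 from 78920787 to 78960226, had 1 and 0 counts with GM-CSF and 59 and 77 with DON (2.06 and 2.37 CPM). The ratio of scaled counts was 142 with a 95% counting interval of 25.1 to 5650. The fitted log2 fold change (6.83) moved to 9.12 without GM-CSF replicate 1, since it rests on 1 count. Cxcr1, a receptor of neutrophil-attracting chemokines, went from 27.3 and 27.7 to 165 and 161 CPM, and its neighbour in function Cxcr2 from 2.61 and 2.59 to 8.81 and 7.99. With no GM-CSF, Cxcr1 was at 73 and 75.8 CPM, between the other groups, and Cxcr2 at 59.8 and 60.3 CPM, far above both. The atypical receptor Ccrl2 (1.59 ± 0.07) and Cxcr4 (0.99 ± 0.05) also rose, while Gpr35 fell from 18 and 23.1 to 3.53 and 3.93 CPM and Ccr1, a receptor of CC chemokines, by 1.06 on the log2 scale. Of 15 receptors 5 rose (33.3%) and 4 fell, shares near the background. The interferon-induced GTPase Gbp2 rose from 20.4 and 19.1 to 83.9 and 85.2 CPM, but most interferon genes did not: of 35, 10 rose (28.6%), 4 fell and 21 were not called.

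Parts of GM-CSF signalling were lower although the cytokine was present. The receptor chain Csf2rb was at 1089 and 1156 CPM with GM-CSF and 1148 and 1178 with DON (interval of the log2 fold change -0.04 to 0.14), and Csf2ra rose (0.47 ± 0.04). Of 11 feedback genes 6 fell and 3 rose. The fallers included 2 inhibitors that STAT factors induce, Socs3 from 91.7 and 97.9 to 23.1 and 20.4 CPM (-2.13 ± 0.07) and Cish from 140.3 and 137 to 77.2 and 68.8 (-0.93 ± 0.07). With no GM-CSF, Socs3 was at 2.71 and 3.0 CPM and Cish at 0.984 and 0.683 CPM, so with DON both lay between the other groups. The transcription factor Irf4 went from 72.8 and 81 to 15 and 16.8 CPM and the inhibitor of differentiation Id1 from 51.3 and 41.6 to 10.1 and 9.46, and without the cytokine they were at 9.07 and 10.1 and at 21.8 and 20.6 CPM. Of the list's 32 members 16 fell (50%) and 8 rose (25%); Il3ra, the interleukin 3 receptor chain, was among the risers (1.42 ± 0.06).

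**Figure D5:**
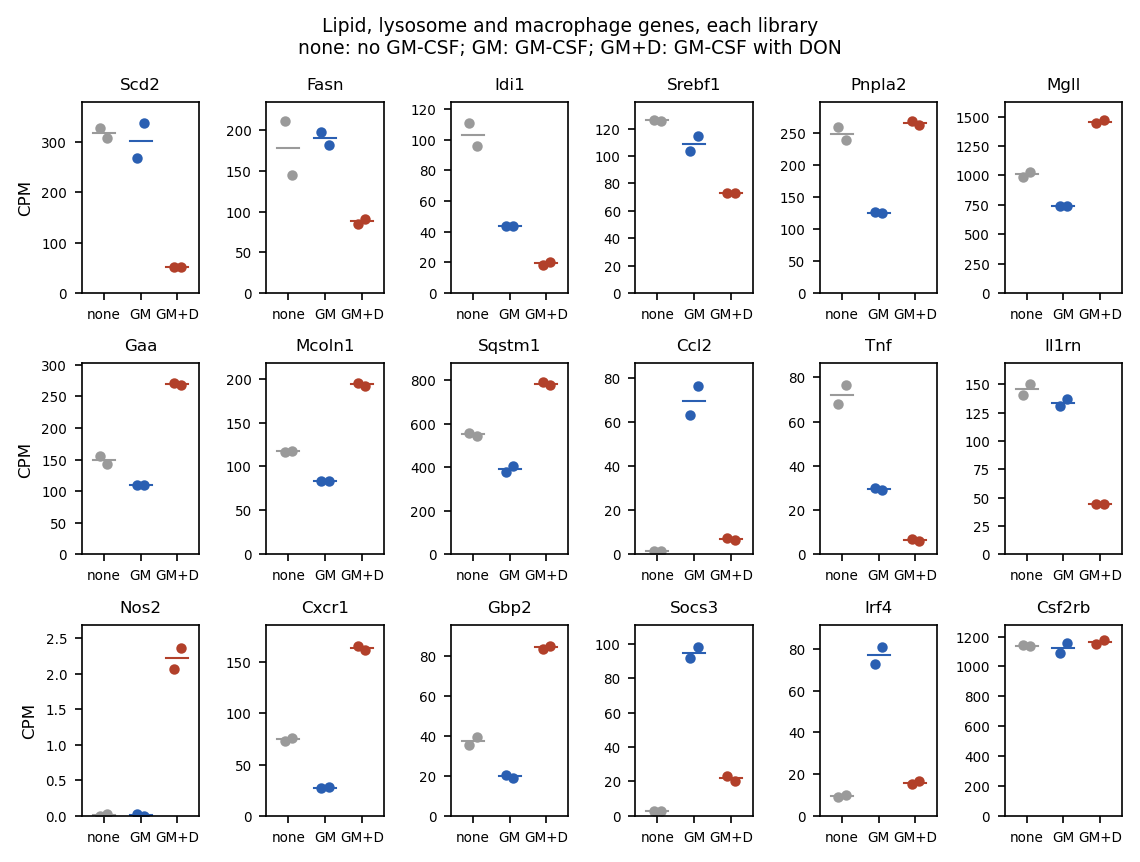
CPM (linear axis from 0) of 18 lipid, lysosome and macrophage genes in each library, 2 points and their mean per group: no GM-CSF (grey), GM-CSF (blue) and GM-CSF with DON (red). Lipid synthesis genes and Ccl2, Tnf, Il1rn, Socs3 and Irf4 fall from blue to red, lipase and lysosome genes and Nos2, Cxcr1 and Gbp2 rise, and for Csf2rb the blue and red points overlap.

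Identity genes of alveolar macrophages moved in both directions, 21 higher (44.7%) and 18 lower (38.3%) of 47, with 2 and 4 at least 2-fold. The carbonic anhydrase Car4 had 661 and 652 CPM with GM-CSF and 325 and 303 with DON, and 0.215 and 0.238 with no GM-CSF, so the DON libraries lay between the other groups. The scavenger receptor Marco fell from 92.6 and 74.8 to 38.8 and 34.7 CPM. Pparg, the regulator of these cells' identity, rose by 0.40 ± 0.05, the integrin Itgax by 0.39 ± 0.06 and the zinc transporter Slc39a2 by 1.14 ± 0.05. Ear2 fell (-1.22 ± 0.09) and Ear6 rose (1.0 ± 0.07), but members of this ribonuclease family are alike in sequence and may share reads. Of 15 class II antigen presentation genes 6 rose and 6 fell. All 4 members of the group of class II chains and the invariant chain rose, among them the invariant chain gene Cd74 (0.80 ± 0.04), H2-Aa (0.57 ± 0.05) and H2-Eb1 (0.59 ± 0.07). Of 6 genes of peptide loading and its control 4 fell, such as H2-DMa (-0.80 ± 0.05) and H2-DMb1 (-0.72 ± 0.05), and the protease gene Ctss rose (0.21 ± 0.04).

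Recognition, matrix and redox genes showed further large single changes. Of 45 recognition genes 12 rose and 18 fell (40%). The C-type lectins Clec4e (1.13 ± 0.08) and Clec4d (1.04 ± 0.06), which sense mycobacterial lipids, rose, while Clec12a (-1.5 ± 0.05) and the high-affinity Fc receptor Fcgr1 (-1.21 ± 0.08) fell. The protease Adam8 went from 80.6 and 105 to 13.7 and 16.8 CPM. Gpnmb, a glycoprotein of lysosome-rich macrophages, rose from 3326 and 3473 to 6657 and 6699 CPM and Lgals3 by 0.64 ± 0.04. The glutathione transferase Gstm1 rose from 354 and 355 to 910.3 and 876 CPM, although its list was even (13 higher and 12 lower of 42). Among iron genes the ferritin chains Fth1 (0.60 ± 0.04) and Ftl1 (0.39 ± 0.03) rose and the transferrin receptor Tfrc fell (-1.06 ± 0.10). In the list of alternative activation and matrix genes 9 rose and 14 fell of 28, with the protease Mmp19 higher (1.11 ± 0.08) and the elastase Mmp12, among the most abundant genes, not called (interval -0.09 to 0.13).

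A small number of genes crossed from near absence to clear detection. Under 1 CPM with GM-CSF and at least 2 CPM with DON were 33 called genes, and 19 showed the reverse. Besides Nos2, Bex1 had 9 and 4 counts with GM-CSF and 108 and 119 with DON, and Vnn3, a pantetheinase, 26 and 27 against 163 and 195. The predicted gene Gm20418 had no counts with GM-CSF and 187 and 225 with DON, a rise of at least 71.3-fold when 3 counts are assumed in each library at 0. Its call was lost without either GM-CSF library (adjusted p = 0.0635 and 0.054), and its no GM-CSF libraries held 0 and 282 counts, so libraries of 1 group disagreed. In the other direction, the cytokine gene Tnfsf4, which encodes OX40 ligand, had 96 and 124 counts with GM-CSF and 8 and 7 with DON. Pif1, a DNA helicase, had 397 and 300 against 27 and 31, and Nes, which encodes nestin, 113 and 86 against 8 and 9. The libraries of both groups were apart for each of these genes. That limit, like the interval for Nos2, accounts for counting error and nothing else, because reads are not independent molecules.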

How the data were processed

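Total RNA of the 6 libraries was sequenced, and the authors deposited a table of counts per gene and a table of FPKM (fragments scaled by gene length and library size). STAR 2.6.0a (an aligner), featureCounts, Subread 1.4.6, DESeq2 1.28.1 and the build mm10 are named, per the submitters' processing notes, which are held here without order or settings; no source used here gives the strand settings. The libraries held 28321986 to 35196387 counts, which gave a median SE of 0.08 for a log2 fold change. Libraries were grouped by their labels. Counts were fitted with edgeR 4.0.16 (R 4.3.3): TMM scaling, a minimum count of 10 (filterByExpr), all 6 libraries in 1 quasi-likelihood fit with 1 mean per group, and Benjamini-Hochberg adjusted p-values over all 12340 genes tested, called under 0.05. CPM values of single genes are counts divided by the TMM-scaled library size, and marker sums are divided by total counts. The code was tested on simulated data. The 2 libraries of a group differed by more than sampling noise (chi-square per degree of freedom 5.54 with GM-CSF, 4.67 with DON). Each was treated as 1 sample, although this difference cannot show that they came from separate cultures or animals.

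The gene lists, and the genes to be named, were chosen with earlier results of these data known; lists are described by counts and medians beside those of all genes. Named were 6 marker genes, the 25 largest rises and falls with a mean of at least 10 CPM and no overlap between groups, the 8 largest changes of each list with a mean of at least 2 CPM, preset members of each list, all members of lists of up to 20, up to 8 genes each way that crossed from under 1 to at least 2 CPM, and the 10 most abundant genes. Pttg1, Cxcl16, Rb1, Eif4ebp1, Glb1 and Atp6v0b fall outside this rule and were chosen after their values were seen. Promoters are RefSeq windows on GRCm38.p6, of which the 250 bases before each start were searched. Gene positions are from RefSeq on that build. Alternatives were other scalings and filters, DESeq2 1.42.0, limma-voom (limma 3.58.1), only the 4 libraries, a replicate block, each library left out, edgeR's test against a log2 fold change of 0.58, and limma on log2(FPKM + 1) of the deposited FPKM.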

Additional observations from a re-analysis of the deposited data

How the results depend on the processing

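The 3555 higher and 3556 lower genes became 2913 and 3243 with DESeq2, 3377 and 3759 with total counts only, and 3641 and 3667 with only the 4 libraries. Without 1 library each time, called genes numbered 2879 to 3072 higher and 3005 to 3153 lower, and those at least 2-fold 539 to 612 higher and 485 to 552 lower. Testing against a log2 fold change of 0.58 left 729 higher and 703 lower. With a mean of at least 10 CPM, 202 genes were at least 2-fold higher and 224 lower, and 5 rather than 8 genes of the GM-CSF signalling list were higher; fewer genes are tested there. Counts were recomputed for 29 combinations of list and direction, but not with the test against 0.58 or with limma on log2(FPKM + 1). The 28 others stayed within 1.5 times of the reported count, and the remaining list counts in the text were not rerun. Named genes were compared over 13 alternatives, which leave out the test against 0.58. Of 475 named genes called, 429 were called in 1 direction under every one of these 13 that gave a value, and 46 lost the call under at least 1. Direction reversed for Arrdc3 (-0.10 with limma on log2(FPKM + 1), adjusted p = 0.595) and for mt-Atp8, not called in the reported fit (0.23 without GM-CSF replicate 1, adjusted p = 0.037, and -0.31 without GM-CSF replicate 2); the cause was not tested. Replicate numbers are shared between groups, but the labels do not say what they mark, and same-numbered deviations of both groups correlated at r = 0.06 over 8164 genes, which are not independent. With the replicate block 3433 genes were higher and 3449 lower. With 2 libraries a group, each p-value rests on a spread shared across groups and genes, and genes under a few CPM are limited by depth.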
